A study of Arabidopsis thaliana and Oryza sativa and Cucumis sativus with 30 samples.

Results

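The genes described here were measurable in sorted wild-type epidermis of the Arabidopsis root tip and low in sorted root hair cells. They were chosen by level: a mean of 10 or more normalised CPM (reads scaled to a common library size) over the 3 wild-type WER::GFP libraries, and a mean above 0 and below 1 FPKM (fragments scaled to transcript length and library size) over the 3 COBL9::GFP libraries. Of the 17628 genes of the deposited comparison of rhd6 with wild type, 11200 reached the wild-type minimum and 241 met both conditions. The other 10959 genes at the same minimum, all of them at 1 FPKM or more in COBL9::GFP cells, serve for comparison. The set was not abundant: its median was 14.8 CPM in wild type, against 38.3 CPM for the other genes. The wild-type and COBL9::GFP levels of the 241 genes are therefore a description and carry no test.

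The series covers 30 libraries in 10 groups of 3, and 12 libraries in 4 Arabidopsis groups are used here. They are rhd6 mutants carrying WER::GFP, wild type carrying WER::GFP, wild type carrying COBL9::GFP, and hairs sieved from frozen roots with no transgene named in their labels. All carry the variety label Columbia and were taken 4 to 5 days after plating on MS medium under constant light at 22 °C. The 3 transgenic groups were sorted for GFP from protoplasts of pooled root tips. The WER promoter is known to be active in young epidermis, more strongly in the files that form no hairs, and in the lateral root cap, and the COBL9 promoter in epidermal cells that form hairs. Within each group the sorted libraries are called A, B and C in the order of their columns, since their own numbers stand in no label. The labels state neither the rhd6 allele nor the number of plants or transgenic lines behind a library.

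Root epidermal cells lie in files of hair and non-hair cells. Each file runs from dividing cells near the tip, through elongation, to mature cells in which hairs grow. RHD6 is a basic helix-loop-helix factor that starts hair outgrowth, and its loss leaves few hairs. Dividing cells are known for high rates of ribosome assembly, DNA replication and cytokinesis, while a growing hair no longer divides.

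Reads per WER::GFP library numbered between 10562137 and 23110648. RHD6 itself averaged 1.40 ± 0.54 CPM in rhd6 and 78.4 ± 6.09 CPM in wild type (SD, n = 3 each), and the gene COBL9, named SHV2 in RefSeq, averaged 118 ± 67.6 FPKM in COBL9::GFP cells. WER (MYB66) averaged 96.0 ± 33.4 CPM in rhd6 and 67.4 ± 11.8 CPM in wild type, and was still at 13.4 ± 4.59 FPKM in COBL9::GFP cells. The libraries of a group were far from identical, and 2 of them bear on the results. The rhd6 library A held a summed 169 CPM of 7 root cap genes, against 1041 and 460 CPM in the rhd6 libraries B and C and 317 to 443 CPM in wild type. It also held a summed 920 CPM of 27 mitosis and cytokinesis genes, against 541 and 575 CPM in the other rhd6 libraries and 392 to 466 CPM in wild type. Among COBL9::GFP libraries the same root cap genes summed to 74.0 FPKM in library A, 1182 FPKM in library B and 557 FPKM in library C, and the mitosis genes to 22.3, 103 and 79.8 FPKM. A list of 13 hair factor and hair wall genes took another order there, with 4825, 1477 and 3056 FPKM. In rhd6 these hair genes summed to 162, 502 and 313 CPM, against 2144, 2129 and 4083 CPM in wild type. In such bulk libraries, fewer cells of a type and less RNA per cell cannot be told apart.

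All 241 genes matched RefSeq, 240 of them coding for protein and 1 a pseudogene, and 111 have a symbol. They were spread over the genome, with 59 on chromosome 1, 30 on chromosome 2, 50 on chromosome 3, 36 on chromosome 4 and 66 on chromosome 5, shares within 4 percentage points of those of the other genes. Grouped by their annotation into 10 roles after their values had been seen, 137 of the 241 were placed. The largest role was ribosome assembly and rRNA processing with 34 genes, followed by organelle genome and RNA with 22, developmental regulators and receptor kinases with 19, mitosis and cytokinesis with 17, and DNA replication and repair with 14. Cell wall and surface had 9, chromatin and gene silencing 7, nuclear RNA polymerase subunits 6, nucleotide synthesis 5 and tRNA processing 4.

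Ribosome assembly takes place in the nucleolus, where RNA polymerase I transcribes the rRNA precursor and a large set of factors folds, cuts and modifies it. Genes placed in this role stood at the head of the set: 12 of the 15 genes with the highest wild-type level were in it. Roles were assigned only within the set, so they have no share among the other genes. Genes with the nucleolus in their annotation made up 14 of the 241 (5.81%) and 196 of the other genes (1.79%). Only 6.67% of the genes so annotated at the wild-type minimum were in the set. AT3G11964, the homologue of the yeast rRNA processing factor RRP5, was the highest, with 262, 128 and 154 CPM in rhd6, against 136, 114 and 113 CPM in wild type. In COBL9::GFP cells it had 0.43, 1.05 and 1.13 FPKM. AT3G06530, an ARM repeat protein, followed with 260, 121 and 160 CPM in rhd6, against 130, 108 and 104 CPM in wild type, and 0.44, 0.87 and 0.91 FPKM in COBL9::GFP cells. In both genes 1 rhd6 library was far above every wild-type library, and the other rhd6 libraries lay within or above the wild-type range by a smaller margin.

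AT1G67120, a midasin-like ATPase of the kind that remodels the large subunit, had 185, 89.0 and 125 CPM in rhd6, against 104, 76.2 and 70.1 CPM in wild type. Its COBL9::GFP values were among the lowest in the role, at 0.16, 0.31 and 0.25 FPKM. The groups overlapped in 1 rhd6 library. TOZ, a WD-40 nucleolar protein needed for cell division in the embryo, had 124, 62.8 and 64.6 CPM in rhd6, against 53.5, 47.9 and 55.9 CPM in wild type, with no overlap. AT4G30990, an ARM repeat protein, had 135, 73.9 and 85.4 CPM in rhd6, against 61.5, 58.5 and 56.2 CPM in wild type, again with no overlap. None of these 5 genes passed the test in rhd6. Their log2 fold changes were 0.52 ± 0.28 for AT3G11964, 0.59 ± 0.29 for AT3G06530, 0.62 ± 0.30 for AT1G67120, 0.60 ± 0.28 for TOZ and 0.68 ± 0.24 for AT4G30990 (SE, limma, adjusted p from 0.208 to 0.398).

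**Figure D1:**
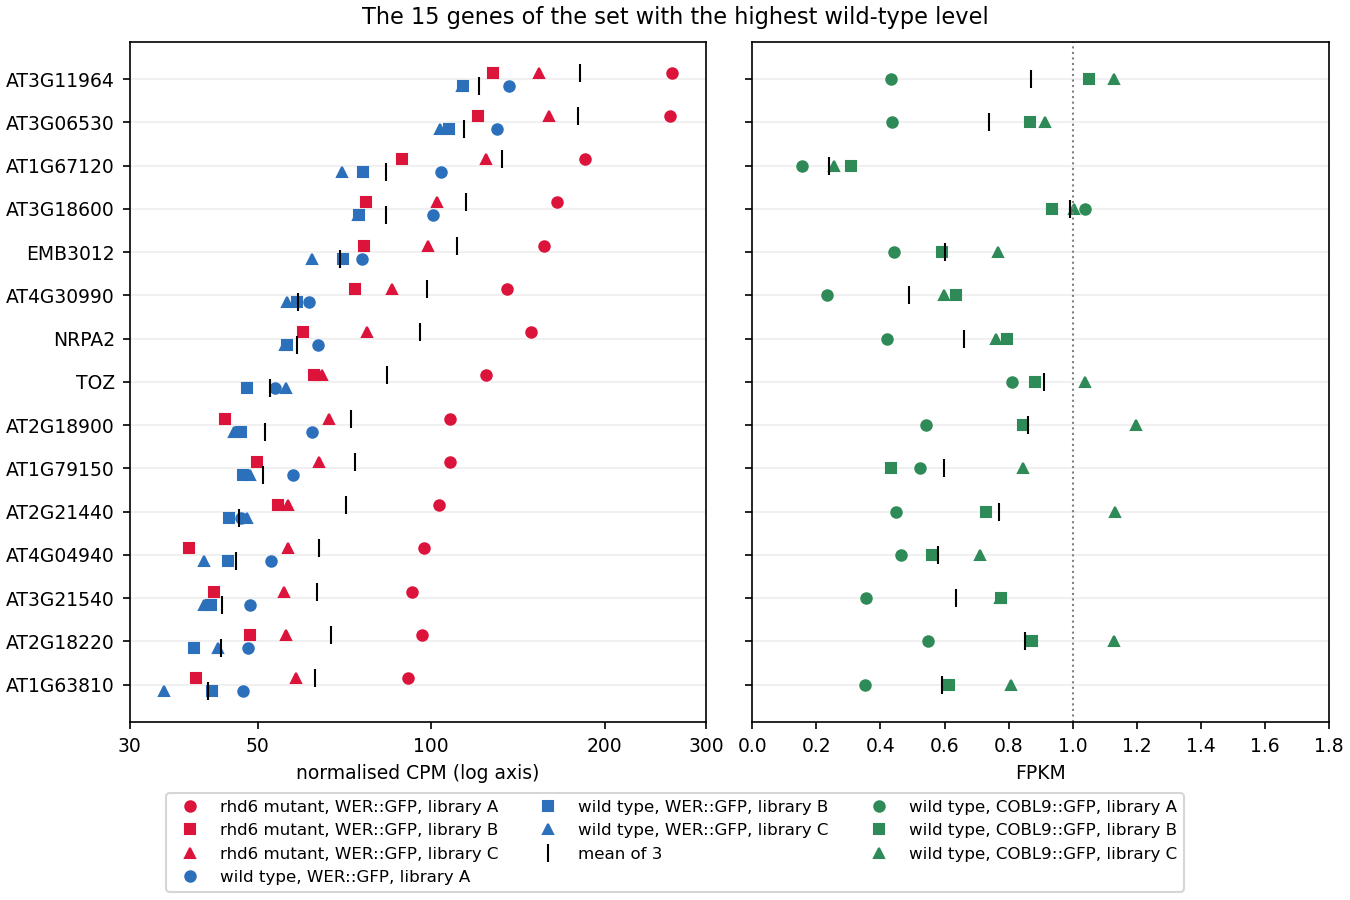
Values per library of the 15 genes with the highest wild-type level, in rhd6 (red) and wild-type (blue) WER::GFP cells as normalised CPM on a log axis (left) and in COBL9::GFP cells as FPKM (right, dotted line at 1); each point is 1 library and each black bar the mean of 3. The rhd6 library A (circles) is to the right of all other libraries in every row, from 262 CPM for AT3G11964 to 91.3 CPM for AT1G63810.

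Of the 6 genes placed with nuclear RNA polymerases, 5 code for large subunits of the enzymes that make rRNA, tRNA and silencing RNA, and none for one of RNA polymerase II, which makes mRNA. NRPA2, the second subunit of RNA polymerase I, had 149, 60.1 and 77.4 CPM in rhd6, against 63.7, 56.2 and 55.8 CPM in wild type, and 0.42, 0.80 and 0.76 FPKM in COBL9::GFP cells. NRPC1 and NRPC2, the large subunits of RNA polymerase III, averaged 28.8 and 47.7 CPM in rhd6, against 19.6 and 35.9 CPM in wild type. NRPD2A and NRPD1B belong to the plant-specific polymerases of RNA-directed DNA methylation and averaged 34.9 and 29.1 CPM in rhd6, against 21.2 and 19.6 CPM in wild type. Of the 8 genes at the wild-type minimum whose annotation holds the words nuclear RNA polymerase, 5 were in the set (62.5%). Subunits annotated in other words were not counted, so this is not a share of all such subunits. Structural ribosomal proteins, whose genes are short and highly expressed, made up 2 of the 241 (0.83%) and 280 of the other genes (2.56%).

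Promoters of 4 assembly genes are shown to place a motif that was common in this role. They are the 4 with the highest wild-type level among genes of the role that hold it, and AT3G18600, number 4 in the role by level, is not shown because it holds none. Each is the 300 bases before the annotated gene start, read 5′ to 3′ on the gene's strand from the RefSeq assembly TAIR10.1, and none overlaps another annotated gene. Capitals mark TGGGCC or TGGGCT on either strand, the core of the site II element known from promoters of ribosomal protein and cell cycle genes. AT3G11964 was read from chr3:3806744-3807043 on the minus strand, AT3G06530 from chr3:2022133-2022432 on the plus strand, AT1G67120 from chr1:25095639-25095938 on the minus strand and AT4G30990 from chr4:15083798-15084097 on the plus strand.
AT3G11964: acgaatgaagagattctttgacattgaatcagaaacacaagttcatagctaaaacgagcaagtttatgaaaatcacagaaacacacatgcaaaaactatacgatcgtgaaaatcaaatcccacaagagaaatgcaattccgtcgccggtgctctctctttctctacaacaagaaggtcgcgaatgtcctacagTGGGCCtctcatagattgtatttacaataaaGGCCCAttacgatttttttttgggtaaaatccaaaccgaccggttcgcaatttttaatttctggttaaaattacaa
AT3G06530: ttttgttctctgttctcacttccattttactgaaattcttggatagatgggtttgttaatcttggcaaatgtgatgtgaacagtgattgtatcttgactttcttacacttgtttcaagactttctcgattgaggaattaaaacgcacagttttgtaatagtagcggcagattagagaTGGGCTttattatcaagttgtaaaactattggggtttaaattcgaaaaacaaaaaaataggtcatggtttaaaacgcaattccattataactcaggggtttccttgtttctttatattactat
AT1G67120: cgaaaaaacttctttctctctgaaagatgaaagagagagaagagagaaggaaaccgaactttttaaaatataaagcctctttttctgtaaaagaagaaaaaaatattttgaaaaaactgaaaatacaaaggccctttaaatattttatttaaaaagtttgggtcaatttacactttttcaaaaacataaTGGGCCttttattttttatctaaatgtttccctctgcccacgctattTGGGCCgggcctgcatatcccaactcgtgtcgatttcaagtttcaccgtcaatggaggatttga
AT4G30990: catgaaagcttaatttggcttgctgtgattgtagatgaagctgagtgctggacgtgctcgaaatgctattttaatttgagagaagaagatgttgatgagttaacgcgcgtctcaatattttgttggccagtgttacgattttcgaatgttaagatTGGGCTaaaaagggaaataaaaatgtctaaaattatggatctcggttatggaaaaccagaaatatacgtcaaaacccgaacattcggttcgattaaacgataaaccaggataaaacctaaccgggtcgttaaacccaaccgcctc

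AT3G11964 holds TGGGCC starting 107 bases before the gene start and the same motif on the other strand starting 76 bases before it, and AT1G67120 holds TGGGCC 111 and 64 bases before its start. AT3G06530 and AT4G30990 hold TGGGCT 123 and 145 bases before their starts. Either motif was present in 20 of the 34 assembly promoters (58.8%) and in 93 of the 241 promoters of the set (38.6%), against 25.1% of all 17605 promoters of the table and 25.8% of the other promoters at the wild-type minimum. The role was assembled, and this motif chosen, after values had been seen, so the shares are a description. A TGGGCC followed by CA is also a match on the other strand and was counted once per promoter. The telo box AAACCCTA was in 6.22% of the set's promoters and 4.48% of all promoters. AACGG, the core of the mitosis-specific activator motif, was in 25.3% of the set and 25.2% of all promoters. It was in 7 of the 17 promoters of the mitosis role and in 3 of the 34 assembly promoters. TGGGCC or TGGGCT was also in 7 of the 17 mitosis promoters (41.2%). The L1 box forms TAAATGTA and TAAATGCA were in 4.15% and 1.66% of the set, against 3.65% and 1.72% of all promoters, and the G-box CACGTG in 3.73% of the set, against 8.24% of all promoters. All motifs were searched on both strands.

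Genes that act in the organelles formed the next role. They included MGP3 (AT1G68990) and SCA3, phage-type RNA polymerases of mitochondria and plastids, the organellar DNA polymerases POLGAMMA1 and POLGAMMA2, the gyrase subunit GYRB1, and the plastid RNA helicases emb1138 (RH3) and RH39. POLGAMMA2 had 28.0, 17.1 and 17.3 CPM in rhd6, against 10.4, 13.02 and 12.1 CPM in wild type, and 0.09, 0.16 and 0.24 FPKM in COBL9::GFP cells. Its groups did not overlap, but the difference did not pass (log2 fold change 0.73, limma adjusted p = 0.174). Pentatricopeptide repeat proteins, which bind organelle transcripts, made up 8 of the 241 genes (3.32%) and 64 of the other 10959 (0.58%) by annotation. Genes whose annotation holds the words embryo defective made up 11 of the 241 (4.56%) and 72 of the others (0.66%). Genes with such a name in their symbol only were not counted, so these are not shares of all such genes.

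The mitosis and cytokinesis role held the phragmoplast-orienting kinesins POK1 and POK2, which place the division plane, the phragmoplast kinesin PAKRP1, the division dynamin DRP5A, separase (ESP), the anaphase-promoting subunit APC4 and the cyclin-dependent kinase CDKB1;2. POK2 had 84.3, 48.5 and 57.9 CPM in rhd6, against 36.7, 32.0 and 25.5 CPM in wild type. POK1 had 44.4, 23.8 and 29.8 CPM in rhd6, against 16.5, 16.4 and 14.9 CPM in wild type. Every rhd6 library was above every wild-type library for both kinesins. Neither passed with limma (POK2, log2 fold change 0.97 ± 0.25 SE, adjusted p = 0.0895; POK1, 0.95 ± 0.24 SE, adjusted p = 0.0902), and both did with DESeq2 (adjusted p = 0.0135 for POK2 and 0.0125 for POK1). In COBL9::GFP cells POK2 had 0.09 FPKM in library A, 1.47 FPKM in library B and 0.86 FPKM in library C. The whole role was uneven there, with a median gene at 0.28 FPKM in library A, 1.10 in library B and 1.01 in library C, and 15 of its 17 genes were lowest in library A. The root cap sum took the same order over these libraries, and its part in the values was not tested. Neither kinesin was listed in sieved hairs. PS1, a forkhead-associated protein needed for spindle orientation in male meiosis, had 60.7, 27.7 and 32.5 CPM in rhd6, against 18.8, 19.9 and 19.3 CPM in wild type. DRP5A had 33.1, 20.25 and 20.22 CPM in rhd6, against 14.9, 13.02 and 13.6 CPM in wild type. Both were apart between genotypes in every library without passing in limma (adjusted p = 0.147 for PS1 and 0.153 for DRP5A), and in the role as a whole this held for 9 of 17 genes, where it held for 13.2% of all tested genes and 11.2% of those at the wild-type minimum.

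A wider list of 27 mitosis and cytokinesis genes, all of them in the table, shows how far the thresholds reach. It had 20 genes at the wild-type minimum and 6 below 1 FPKM in COBL9::GFP cells, but only POK1, POK2 and CDKB1;2 met both conditions. None of the 27 passed the limma test in rhd6, and their median log2 fold change was 0.56. With DESeq2, TPX2, PLE and HIK, which are outside the set, passed as POK1 and POK2 did. Their DESeq2 adjusted p was 0.00394 for TPX2, 0.0197 for PLE and 0.0477 for HIK. Of 12 replication genes, 11 reached the wild-type minimum, and only MCM6, a subunit of the replicative helicase, was in the set. MCM6 had 41.2, 21.3 and 23.5 CPM in rhd6, against 16.4, 17.2 and 13.1 CPM in wild type, with no overlap (log2 fold change 0.79 ± 0.27 SE, limma adjusted p = 0.194). The mismatch repair gene MSH6 had 48.1, 33.4 and 34.5 CPM in rhd6, against 21.1, 24.0 and 20.3 CPM in wild type. Its groups were apart as well, with a limma adjusted p of 0.0876 and a DESeq2 adjusted p of 0.0216.

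The role of developmental regulators and receptor kinases held 19 genes. Few genes of the lists for patterning, stem cell niche and root cap were in the set. PLT1, an AP2-type factor of the root stem cell niche, had 48.1, 46.0 and 35.3 CPM in rhd6, against 25.8, 23.2 and 21.1 CPM in wild type, and 0.17, 1.23 and 0.69 FPKM in COBL9::GFP cells. The lowest rhd6 value was above the highest wild-type value (log2 fold change 0.85 ± 0.19 SE, limma adjusted p = 0.0544, DESeq2 adjusted p = 0.00559). FEZ, a NAC factor of root cap stem cells, had 23.4, 16.5 and 15.9 CPM in rhd6, against 10.1, 12.2 and 9.37 CPM in wild type. SUB, the receptor kinase also called SCRAMBLED, through which cells learn their position over the cortex, had 23.6, 16.8 and 15.7 CPM in rhd6, against 10.8, 10.3 and 10.4 CPM in wild type. SUB was the lowest of all 241 genes in COBL9::GFP cells, with 0.10, 0.13 and 0.07 FPKM. Its rhd6 and wild-type libraries did not overlap, and it passed with DESeq2 (adjusted p = 0.0322) but not with limma (log2 fold change 0.75 ± 0.20 SE, adjusted p = 0.104). ARF8, an auxin response factor, had the highest wild-type level of the role, with 75.3, 37.6 and 48.7 CPM in rhd6, against 26.9, 30.9 and 27.9 CPM in wild type, and no overlap (log2 fold change 0.84 ± 0.26 SE, limma adjusted p = 0.154). GRF4, a growth-regulating factor, had 21.3, 7.02 and 14.5 CPM in rhd6, against 12.8, 8.58 and 9.98 CPM in wild type, and its genotypes overlapped widely. The homeodomain factor HDG7, the KANADI factor KAN2 and the receptor kinase GHR1, known from guard cells, averaged 25.2, 16.1 and 30.7 CPM in rhd6, against 16.5, 10.7 and 20.4 CPM in wild type. Of the 12 patterning genes listed, SUB was the only one in the set, of the 6 stem cell niche genes PLT1, and of the 7 root cap genes FEZ. No gene of the lists for hair factors and hair wall, root cap cell death, cortex and endodermis, stele, indole glucosinolate synthesis, or wounding and stress was in the set.

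**Figure D2:**
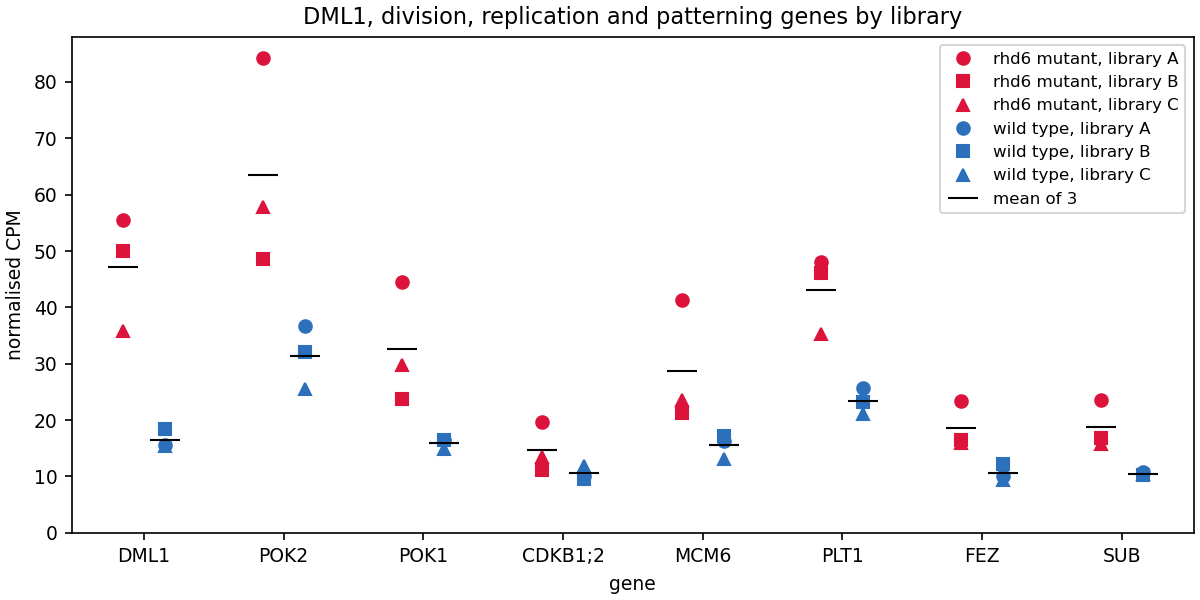
Normalised CPM per library of DML1 and of the genes of the set that stand in the lists for mitosis, replication, stem cell niche, root cap and patterning, in rhd6 (red, left) and wild type (blue, right); each point is 1 library and each bar the mean of 3. DML1, POK1, POK2, MCM6, PLT1, FEZ and SUB have no overlap between genotypes, while CDKB1;2 does, with 11.1 CPM in an rhd6 library and 11.9 CPM in a wild-type library.

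The 9 cell wall and surface genes had the lowest median of any role in COBL9::GFP cells, at 0.475 FPKM. Every other role had its lowest median in COBL9::GFP library A, but these did not, with a median gene at 0.47 FPKM in library A, 0.28 in library B and 0.44 in library C. The pectin acetylesterase AT5G26670 had 32.0, 17.1 and 19.95 CPM in rhd6, against 16.8, 14.1 and 13.5 CPM in wild type, and 0.35, 0.04 and 0.08 FPKM in COBL9::GFP cells. HTH, an oxidoreductase that keeps organ surfaces from fusing through its part in the cuticle, had 37.7, 19.4 and 25.6 CPM in rhd6, against 18.0, 13.7 and 9.60 CPM in wild type. Both were without overlap between genotypes and neither passed (limma adjusted p = 0.314 for AT5G26670 and 0.172 for HTH). The plasmodesmatal protein PDCB1 averaged 51.1 CPM in rhd6 and 33.8 CPM in wild type.

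Chromatin, tRNA and nucleotide genes filled the smaller roles. The histone H3 lysine 9 methyltransferase SUVH4 averaged 16.7 CPM in rhd6 and 11.98 CPM in wild type, and the Dicer enzyme DCL4 averaged 12.9 CPM in rhd6 and 12.1 CPM in wild type, with overlapping libraries. LDL1, a histone demethylase, had 27.1, 20.06 and 21.8 CPM in rhd6, against 14.7, 13.97 and 11.6 CPM in wild type, with no overlap (limma adjusted p = 0.102). The arginine methyltransferase PRMT1A averaged 41.9 CPM in rhd6 and 28.7 CPM in wild type. The RNase P protein PRORP2 and the tRNA 3′ nucleases TRZ3 and TRZ4 averaged 29.8, 19.9 and 15.2 CPM in rhd6, against 20.7, 14.2 and 12.1 CPM in wild type. The purine synthesis enzymes ASE1 and PUR7 averaged 32.9 and 24.1 CPM in rhd6, against 21.6 and 17.4 CPM in wild type.

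DML1 was the only gene of the set that rose in rhd6 in the limma test. DML1, also known as ROS1, is a DNA glycosylase that removes methylated cytosine. It had 55.5, 50.03 and 35.8 CPM in rhd6, against 15.5, 18.4 and 15.4 CPM in wild type, and the lowest rhd6 value was well above the highest wild-type value. Its log2 fold change was 1.45 ± 0.21 (SE), with an adjusted p of 0.00919 in limma, 0.0108 in edgeR and 8.78e-07 in DESeq2. Leaving out 1 wild-type library at a time kept its fold change between 1.41 and 1.53 but put the limma adjusted p at 0.0561 to 0.0674. In COBL9::GFP cells it averaged 0.87 ± 0.26 FPKM and in sieved hairs it had 7.17, 4.05 and 2.74 FPKM.

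Across the set, 1 of the 241 genes was called higher in rhd6 and none lower by limma at an adjusted p below 0.05, where 0.859% of all tested genes and 0.134% of genes at the wild-type minimum were called higher, and 3.26% and 3.36% were called lower. All 241 passed the filter on low values. The wild-type columns of this comparison also chose the genes, so nothing is read from the count. With edgeR 1 gene was higher and none lower, where 0.865% of all genes and 0.134% of those at the minimum were higher and 2.91% and 2.88% lower. With DESeq2 14 were higher and none lower, where 2.12% of all genes and 0.902% of those at the minimum were higher and 5.56% and 6.05% lower. Besides DML1, POK1, POK2, PLT1, MSH6 and SUB, these were the histone demethylase LDL1, PS1, AT5G45720, AT5G51590, AT1G01320, AT5G55520, AT4G38070 and the nucleoporin AT2G05120, all singled out after their values were seen. The authors' deposited table gives an FDR below 0.05 to 6 of the 241, namely DML1, POK1, POK2, PLT1, PS1 and AT5G45720, all with a higher value in rhd6. In that direction it does so for 301 of all 17628 genes (1.71%) and 51 of the 11200 at the wild-type minimum (0.455%). Over the 11 marker lists, 12 of 13 hair genes were called lower by limma, 1 of 4 measured stem cell niche genes (BBM) was called higher, and no gene of the other 9 lists was called.

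The genes leaned the same way all the same. The log2 fold change of rhd6 over wild type was above 0 for 236 of the 241 (97.9%), against 47.9% of the other genes at the minimum and 58.7% of the long ones among them. The median was 0.46, against -0.02 for the other genes. The exceptions were GH9B8, VAR3, MAKR2, AT1G61990 and OFP1, between -0.31 and -0.01. At an unadjusted limma p below 0.05, 53 were higher and none lower, where 6.74% of all genes and 4.58% of those at the minimum were higher and 10.4% and 11.5% lower. The 3 rhd6 libraries were all above the 3 wild-type libraries for 85 genes (35.3%), where this held for 13.2% of all genes and 11.2% at the minimum, and all below for none, where that held for 14.3% of all genes and 16.9% at the minimum. Neither trait was particular to the set. Of genes at the minimum with 1 to 2 FPKM in COBL9::GFP cells, 37.6% had all rhd6 libraries above and 96.3% a fold change above 0. Among the long other genes, 21.3% had all rhd6 libraries above. Every role with more than 4 genes had a median between 0.44 and 0.56.

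**Figure D3:**
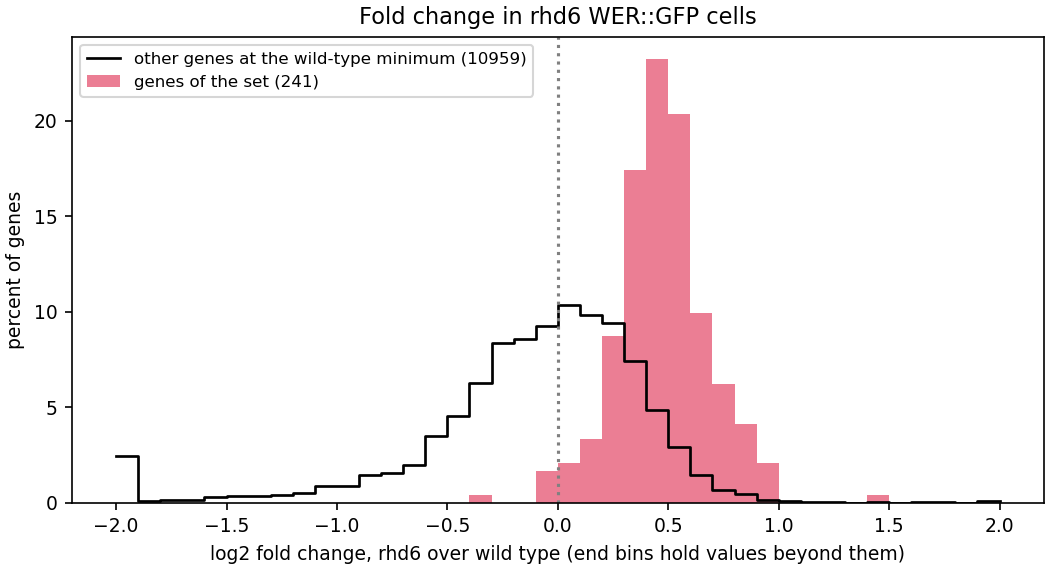
Distribution of the log2 fold change of rhd6 over wild type in WER::GFP cells, as percent of genes per bin of 0.1, for the 241 genes of the set (red bars) and the other 10959 genes at the wild-type minimum (black line). The set lies almost wholly right of 0, with a median of 0.46, and the other genes are spread about -0.02.

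Most of that lean was in 1 library. Relative to the wild-type mean, on the log2(CPM + 1) scale, the median gene of the set was at 1.02 in rhd6 library A, 0.07 in library B and 0.32 in library C, against 0.13, -0.06 and -0.09 in the wild-type libraries. Library A was the highest rhd6 library for 238 of the 241 genes (98.8%), and for 39.6% of the other genes. It was above all wild-type libraries for 236 of the 241 (97.9%), library B for 94 (39.0%) and library C for 180 (74.7%), against 35.5%, 33.2% and 28.1% of the other genes. Among other genes at or above the set's median length the shares were 42.8%, 47.7% and 40.2%, and in library B the share was lower in the set than among those long genes. Without rhd6 library A the median log2 fold change was 0.19, and the share above 0 was 85.1%, against -0.01 and 48.8% for the other genes and 0.11 and 62.5% for the long ones among them. DML1 was still the only gene of the set called higher (0.41%), against 39 of the other genes (0.36%). Without rhd6 library B the median was 0.67 and 5 genes were called higher (2.07%), DML1, POK1, POK2, ARF8 and AT4G38070, against 17 of the other genes (0.16%). Library A also has the lowest root cap sum of the WER::GFP libraries and the highest mitosis sum. The root cap sum is carried by CEL5, BRN1 and BRN2, while FEZ was highest in library A, SMB lay within its wild-type range there and PIN3 above it. The part of either sum in these values was not tested.

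Values without that library were not alike across roles. Without rhd6 library A, the 17 mitosis genes had a median log2 fold change of 0.31 and all 17 were above 0. The 34 ribosome assembly genes had a median of 0.14 with 28 above 0, and in rhd6 library B they were at -0.06 relative to the wild-type mean. Developmental regulators had a median of 0.19, with 14 of 19 above 0. Cell wall and surface genes were also at 0.31, with 7 of 9 above 0, and chromatin genes at 0.27, with 7 of 7. Nuclear RNA polymerase subunits were at 0.25 (5 of 6 above 0) and replication and repair genes at 0.23 (13 of 14). Organelle genes were at 0.19 (18 of 22), nucleotide synthesis at 0.17 (5 of 5) and tRNA processing at 0.06 (3 of 4). No test of the difference between roles was made.

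**Figure D4:**
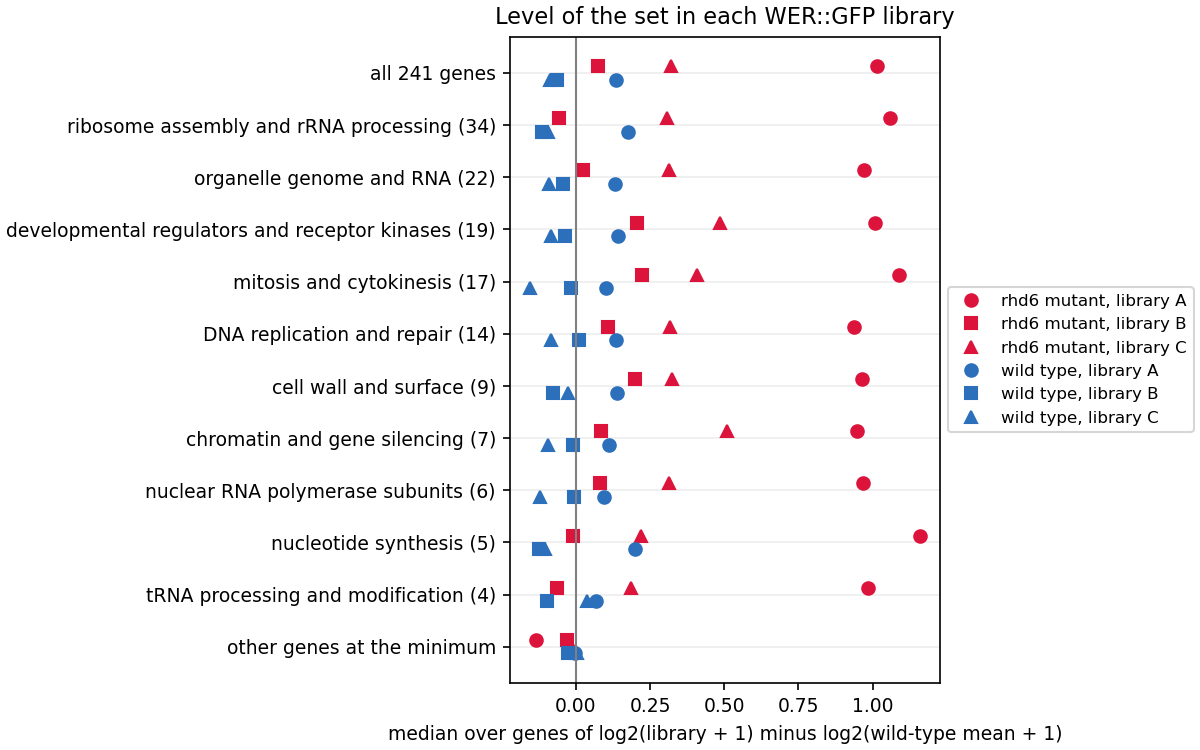
Median over genes of log2(CPM + 1) in each WER::GFP library minus log2 of the wild-type mean + 1, for the 241 genes, for each role (number of genes in brackets) and for the other genes at the wild-type minimum, with rhd6 libraries in red and wild-type libraries in blue. The rhd6 library A (red circles) lies at 1.02 for the whole set and right of every other library in each role, while the other genes lie at -0.14 in that library.

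The rule sets CPM, which grow with transcript length, against FPKM, which do not, and so favours long genes. The median transcript was 2.66 kb in the set and 1.87 kb among the other genes. Per kilobase, the wild-type level had a median of 6.15 CPM in the set, below the 20.4 CPM of the other genes, and 47 of the 241 reached 10 CPM per kilobase. The ratio of wild-type CPM per kilobase to COBL9::GFP FPKM had a median of 10.5 in the set and 0.98 among the other genes, and its lowest value in the set was 2.17. The rule used both levels, so a ratio above 1 was largely fixed by the choice of genes. By role the ratio had a median of 20.4 for ribosome assembly and 5.07 for mitosis. The genes with the highest level per kilobase were AT3G18600, a helicase of the ribosome assembly role, at 39.9 CPM, PDCB1, a callose-binding protein of plasmodesmata, at 31.3 CPM, and AT3G11964 at 19.8 CPM. Longer genes of the remainder, at or above the set's median length, had a median log2 fold change in rhd6 of 0.09.

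COBL9::GFP values of the set had a median of 0.66 FPKM. Of the 241 genes, 151 were below 1 FPKM in all 3 libraries, 90 reached 1 in at least 1 library, and none was at 0 in any. The median gene had 0.37 FPKM in library A, 0.66 in library B and 0.81 in library C, and 171 of the 241 genes were lowest in library A. That library is also the one with the lowest root cap and mitosis sums and the highest sum of hair genes. Just inside the limit of 1 FPKM stood AT5G18700, AT2G15690 and AT5G25800, at 0.997, 0.9994 and 0.9998 FPKM, and just outside it SPT, AT5G38890 and YAO, at 1.002, 1.004 and 1.005 FPKM. At the wild-type minimum, MRE11, AT4G02800 and AT1G67420 were inside with 10.04, 10.05 and 10.1 CPM, and AT3G18580, AT5G11750 and AT3G21300 outside with 9.98, 9.98 and 9.95 CPM.

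Sieved root hairs did not enter the rule. That table lists only genes with a mean of 3 FPKM or more, and it listed 104 of the 241 genes (43.2%), against 88.8% of the other genes at the wild-type minimum and 75.7% of all genes of the comparison. The listed genes had a median of 7.72 FPKM, against 26.6 FPKM for the other genes listed. The listing rested on 2 of the 3 sieved libraries: 44 of the 104 genes were at 0 in sieved library 1, 8 in library 2 and 2 in library 3, and the median gene had 0.01, 12.6 and 8.06 FPKM. Among the other genes listed, 5.26%, 5.74% and 0.14% were at 0 in the same libraries. If library 2 is left out, 29.9% of the set stays at a mean of 3 FPKM or more.

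The highest value in sieved hairs was that of GH9B8, an endoglucanase-like glycosyl hydrolase, with 5.02, 106 and 111 FPKM. In sorted cells GH9B8 varied widely within each genotype, with 10.6, 2.19 and 12.7 CPM in rhd6 and 18.2, 10.9 and 3.23 CPM in wild type. The amino acid transporter AT1G47670 had 0.04, 40.03 and 103 FPKM in sieved hairs, the plastid helicase emb1138 had 5.47, 74.9 and 37.1 FPKM, AT1G14300 had 0, 59.6 and 22.6 FPKM, and the oxygenase JMJD5 had 0, 47.4 and 28.1 FPKM. These genes were high in the last pair of sieved libraries and low or at 0 in the first. AT2G37020, AT3G15380, AT3G46210, AKR4C10 and OFP1 followed, with means between 19.6 and 22.1 FPKM. The listed share differed between roles. It was 20 of 34 ribosome assembly genes, 11 of 22 organelle genes, 4 of 5 nucleotide synthesis genes, 3 of 17 mitosis genes, 2 of 14 replication and repair genes and 4 of 19 developmental regulators. Their median wild-type levels per kilobase also differed, in the same order 11.1, 5.87, 8.36, 4.12, 3.90 and 6.07 CPM. Of the smaller roles, 5 of 7 chromatin genes, 4 of 6 nuclear RNA polymerase subunits, 4 of 9 cell wall and surface genes and 1 of 4 tRNA genes were listed. Their levels were 4.77, 7.03, 7.10 and 7.02 CPM per kilobase in that order. The part of level in these shares was not tested. The 137 unlisted genes had a median log2 fold change in rhd6 of 0.48 and the 104 listed of 0.44.

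The set is the low end of a graded series. Among genes at the wild-type minimum, those below 0.5 FPKM in COBL9::GFP cells were listed in sieved hairs in 33.8% of cases and had a median log2 fold change in rhd6 of 0.52. Between 0.5 and 1 FPKM the values were 46.8% and 0.44, and between 1 and 2 FPKM, just outside the set, 59.5% and 0.43. They were 76.6% and 0.30 between 2 and 5 FPKM, 85.0% and 0.12 between 5 and 10 FPKM, and 93.0% and -0.14 at 10 FPKM or more. The limit of 1 FPKM therefore marks no step in either measure. The bands share their libraries and differ in length and level, and the wild-type columns enter both the minimum and the fold change.

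**Figure D5:**
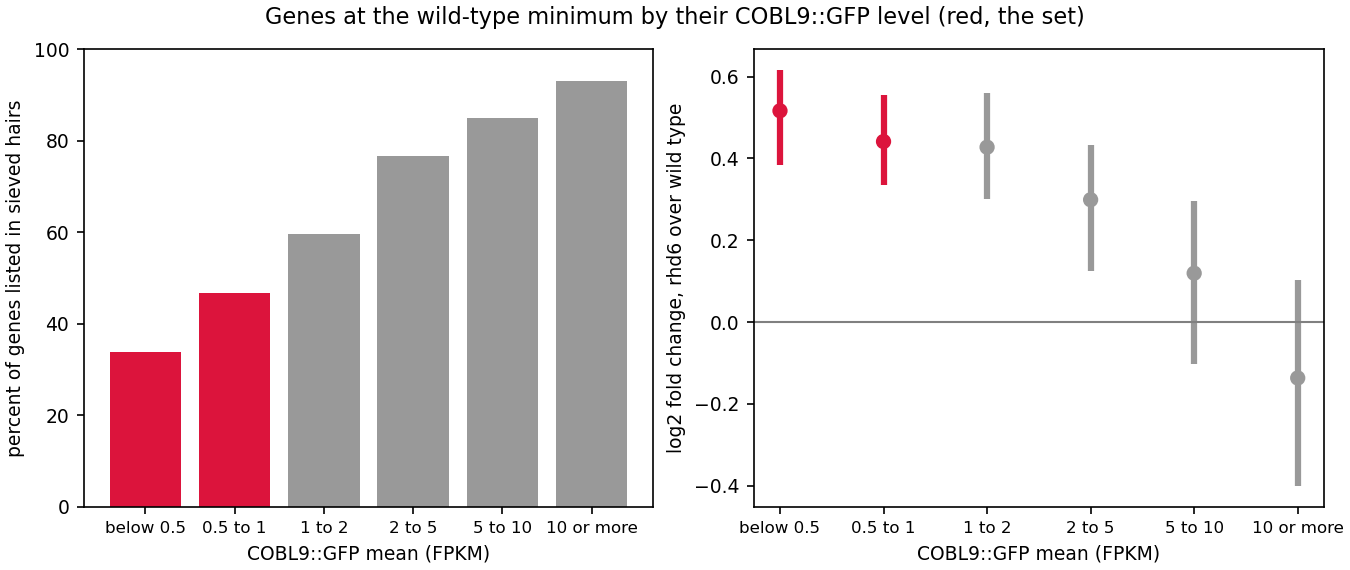
Genes at the wild-type minimum in 6 bands of mean COBL9::GFP level (FPKM): percent listed in sieved hairs (left, bars) and log2 fold change of rhd6 over wild type (right, points for the median and lines for the middle 50% of genes); the set is red and other genes are grey. The listed share climbs from 33.8% below 0.5 FPKM to 93.0% at 10 FPKM or more, and the median fold change is 0.52 and -0.14 in the same bands.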

How the data were processed

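RNA of sorted and sieved root cells was sequenced, and 3 deposited tables were used. For rhd6 against wild type the deposited signal is the authors' normalised CPM, per the file headers, in which every value was a whole number of reads within 0.01 read (100%), with the authors' log2 fold changes and their p-values and FDR. For COBL9::GFP cells and sieved hairs the deposited unit is FPKM, per the column headers. The submitters' processing notes name the aligner TopHat2 (2.0.3, 2.0.9), the counter HTSeq (0.6.1), Cufflinks, edgeR and CASAVA (1.8.2), with no order of steps. The annotation was TAIR10, Ensembl Plants release 19, per the labels, and whether counting used strand, or how it split reads of near-identical genes, is not stated. The sieved libraries were made with SMART-Seq v4 and the sorted ones with TruSeq, per the labels' protocols, so levels were compared between them only as listed or not.

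The rhd6 comparison was fitted here with limma 3.58.1 on log2(CPM + 1), two-sided, with Benjamini-Hochberg adjustment over the 17575 genes at 1 CPM or more in at least 3 of 6 libraries; folds are on that scale and understate changes of low genes. Alternatives were DESeq2 1.42.0 and edgeR 4.0.16 on recovered reads, other pseudocounts, filters and scalings, and each library left out in turn. The series design calls the replicates biological, but nothing ties a library to separate plants, so p-values measure the spread between libraries. Sequences, lengths (longest transcript) and the products used to assign roles by hand come from RefSeq TAIR10.1. The genes named were the 15 highest in wild type by level and by level per kilobase, those past the test, the 10 highest in sieved hairs, those in the 11 marker lists and those next to each threshold; others were named after their values were seen. The genes of the set and the lists were chosen with earlier results of these data known.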

Additional observations from a re-analysis of the deposited data

How the results depend on the processing

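The count of genes called higher in rhd6 was 1 in the main test, 14 with DESeq2, and between 0 and 5 when 1 library was left out. The median log2 fold change stayed positive in every alternative, from 0.19 without rhd6 library A to 0.67 without rhd6 library B, and the share of genes above 0, a value added after seeing the data, lay between 85.1% and 100% with 1 library left out. Other thresholds gave other sets. A COBL9::GFP limit of 0.5 FPKM gave 68 genes, with 0 called higher and 33.8% listed in sieved hairs, and a limit of 2 FPKM gave 624 genes, with 1 lower, 2 higher and 53.2% listed. A wild-type minimum of 5 CPM gave 624 genes, with 6 lower and 6 higher, and one of 20 CPM gave 71 genes with 0 higher. A minimum of 10 CPM per kilobase gave 49 genes, 47 of them shared with the set, with 0 higher and 65.3% listed. Setting the minimum on rhd6 in place of wild type gave 414 genes, 240 of them shared, with 29 higher. The rhd6 values of the test chose those 414 genes, which favours genes higher in rhd6, so nothing is read from that count. By limma, 0.859% of all tested genes were called higher and 3.26% lower. Leaving out 1 library when choosing gave 199 to 300 genes, of which 41.7% to 47.0% were listed. With the set unchanged, leaving out 1 sieved library gave a listed share of 29.9% to 41.9%, a lower bound, since unlisted genes cannot enter.

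Without rhd6 library A, 31 of the 241 fold changes changed sign, and between 1 and 7 did without each of the others. Of the genes named by rule, 6 did so in some setting. Over the omissions of 1 library the log2 fold change was -0.13 to 0.52 for RRP4, -0.12 to 0.26 for AT1G67420, -0.92 to 0.35 for GH9B8, -0.022 to 0.49 for AKR4C10, -0.0078 to 0.51 for RID2 and -0.54 to 0.86 for OFP1, and OFP1 was also at 0.047 without the authors' scaling factors, 0.26 with edgeR and 0.23 with DESeq2. The cause of these changes was not tested. No paired analysis was possible because the library numbers of the columns are not tied to the replicate numbers of the labels. Of the remaining settings for single genes, 563 kept direction and side of the threshold. The depth behind the FPKM values is unknown, so no interval is given for them.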
